A study of Homo sapiens with 15 samples.

Results

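The Hippo kinase cascade genes are 10 of the 18858 genes of the deposited count table. They were chosen by symbol, as the genes that encode the core kinases (STK3, STK4, LATS1 and LATS2), their adaptors (SAV1, MOB1A and MOB1B), the upstream scaffold merlin (NF2) and the kinases that feed into the cascade (TAOK1 and MAP4K4). The rule itself used no measured value, although the set was named with earlier results of these data known, and all 10 genes were found and tested. RNA was measured in MDA-MB-231 cells, an established line of mesenchymal-like, triple-negative breast cancer cells, in 5 groups of 3 libraries. Control cells were left untransfected. The siControl cells received a non-targeting siRNA pool, the siYAP cells a pool against YAP1, the siTAZ cells a pool against WWTR1 (the gene of TAZ), and the siYAP+TAZ cells both pools and therefore more siRNA in all. Knockdown lasted 48 h, and cells then spent 5 to 6 h on gelatin before lysis. The groups share the genotype of the line, which carries an inactivating NF2 mutation, so NF2 is measured here only as RNA.

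In the Hippo pathway, the kinases encoded by STK3 and STK4, held by the scaffold SAV1, phosphorylate and switch on the kinases LATS1 and LATS2 together with their MOB1 co-activators. Active LATS kinases phosphorylate YAP and TAZ, which keeps these transcriptional co-activators out of the nucleus and away from their TEAD partners. Merlin recruits LATS kinases to the membrane, TAO and MAP4K kinases act as further inputs, and LATS2 and NF2 are known as transcriptional targets of YAP and TAZ, so that the pathway restrains itself. The comparisons therefore ask how the RNA of the upstream cascade stood when its downstream co-activators had been depleted.

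Total counts ranged from 18696737 to 30107312 per library. The targeted genes were examined first. YAP1 had 4202 to 4431 normalized counts in siControl libraries 17, 22 and 27, 761, 1013 and 2764 in siYAP libraries 28, 18 and 23, and 1796 to 2240 in siYAP+TAZ libraries 20, 25 and 30. WWTR1 had 1579 to 1995 in siControl, 254, 521 and 828 in siTAZ libraries 24, 29 and 19, and 1123 to 1284 in siYAP+TAZ. Both targets lay below every siControl library wherever their own pool had been given, and their depletion was uneven between libraries. YAP1 was at 41.5 to 51.8% of its siControl mean in the siYAP+TAZ libraries and at 64.0% in siYAP library 23, and WWTR1 kept 65.2% on average in siYAP+TAZ. YAP1 had a log2 fold change of -1.51 in siYAP (adjusted p = 0.0992 in edgeR and 0.00942 in DESeq2) and -1.06 in siYAP+TAZ (0.0723 and 0.0381). Without siYAP library 23 the former was -2.27 (edgeR adjusted p = 3.39e-08). WWTR1 stood at -1.74 in siTAZ (adjusted p = 0.0187 in edgeR and 8.98e-06 in DESeq2) and -0.62 in siYAP+TAZ (0.199 and 0.175). The edgeR call of WWTR1 in siTAZ was lost without siControl library 17 (adjusted p = 0.0667), siControl library 22 (0.0733) or siTAZ library 29 (0.0712) and in a fit of only these groups (0.161), where that of siYAP+TAZ passed (0.00111). Untransfected Control libraries 16, 21 and 26 had 4038, 4488 and 4512 counts of YAP1 and 1475, 1557 and 1830 of WWTR1. All 8 markers expected in MDA-MB-231 were in the table, VIM and CD44 with at least 17514 counts in every library and SPARC with no more than 36. Of 10 markers of other cell types, 3 were in the table, and their summed normalized counts were 68.8 to 97.9 in Control, 69.7 to 91.2 in siControl, 109 to 163 in siYAP, 99.0 to 169 in siTAZ and 301 to 321 in siYAP+TAZ. PDGFRB and PECAM1 carried these sums, with PTPRC at 0 to 6 counts, and their part in the results was not tested. Of 6 markers expected to be low, 3 were in the table, PGR at 0 to 7 counts, EPCAM at 209 to 389 and GATA3 at 379 to 697. In bulk RNA, fewer cells of a kind and less RNA per cell cannot be told apart.

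The siRNAs are shown because a stretch shared with a cascade gene could bear on that gene's count. Each of the YAP1 and WWTR1 siRNAs matched a transcript of its target over 19 of 19 bases, and none matched a cascade gene over more than 11. Capitals mark the longest stretch also found in a transcript of a cascade gene, for the 5 siRNAs in which it reached 10 bases or more.
siYAP siRNA 4, with the stretch found in STK3 and SAV1: gGUCAGAGAUACuucuuaa
siYAP siRNA 2, with the stretch found in MAP4K4: gaacauagaAGGAGAGGAG
siYAP siRNA 3, with the stretch found in TAOK1: ccaCCAAGCUAGAuaaaga
siTAZ siRNA 4, with the stretch found in MOB1A: gacaUGAGAUCCAUcacua
siControl siRNA 1, with the stretch found in LATS2: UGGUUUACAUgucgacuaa
Sequences are the sense strands listed in the study's supplement, 5′ to 3′, where 1 sequence stands for the siControl pool. Shorter seed matches of the guide strands were not searched.

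After knockdown of both co-activators, 3 of the 10 cascade genes differed from siControl. LATS2 and NF2 fell, to 70.6% and 60.6% of their siControl means, and MAP4K4 rose to 167%. LATS2 also fell with siYAP alone and was at 98.7% of siControl with siTAZ alone. A gene was called at an adjusted p of at most 0.05 (edgeR quasi-likelihood test, Benjamini-Hochberg over all 18858 genes). By that rule siYAP+TAZ had 3 called cascade genes, 1 higher and 2 lower, where 18.4% of all genes were called, 9.97% higher and 8.39% lower. The siYAP knockdown had 1, lower, where 0.933% of all genes were called, 0.456% lower. With the added fold limit of the study's methods, a log2 change of 1 or more in size, siYAP+TAZ had 0, where 3.46% of all genes passed. The siTAZ knockdown had 0 where 2.03% were called, with 2 of the 10 at an unadjusted p under 0.05 and 2 called by DESeq2. Of all 18858 genes, 3023 had such an unadjusted p there and DESeq2 called 802. The shares of all genes called with a single pool rested on single libraries, since the 176 calls in siYAP became 27 to 137 and the 383 in siTAZ 68 to 907 when 1 library was left out. Between siControl and Control 0 cascade genes and 0% of all genes were called, with 0 of the 10 and 398 of all genes at an unadjusted p under 0.05 and 0 called by DESeq2. The log2 differences there ran from -0.11 for NF2 to 0.12 for MAP4K4, so transfection of the non-targeting pool moved no member past the test. In siYAP+TAZ the 10 genes had a median log2 fold change of -0.06, beside -0.00 over all genes. Their median was -0.11 in siYAP and -0.06 in siTAZ, beside 0.00 over all genes in both. The 3 knockdown comparisons share the same siControl libraries.

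**Figure D1:**
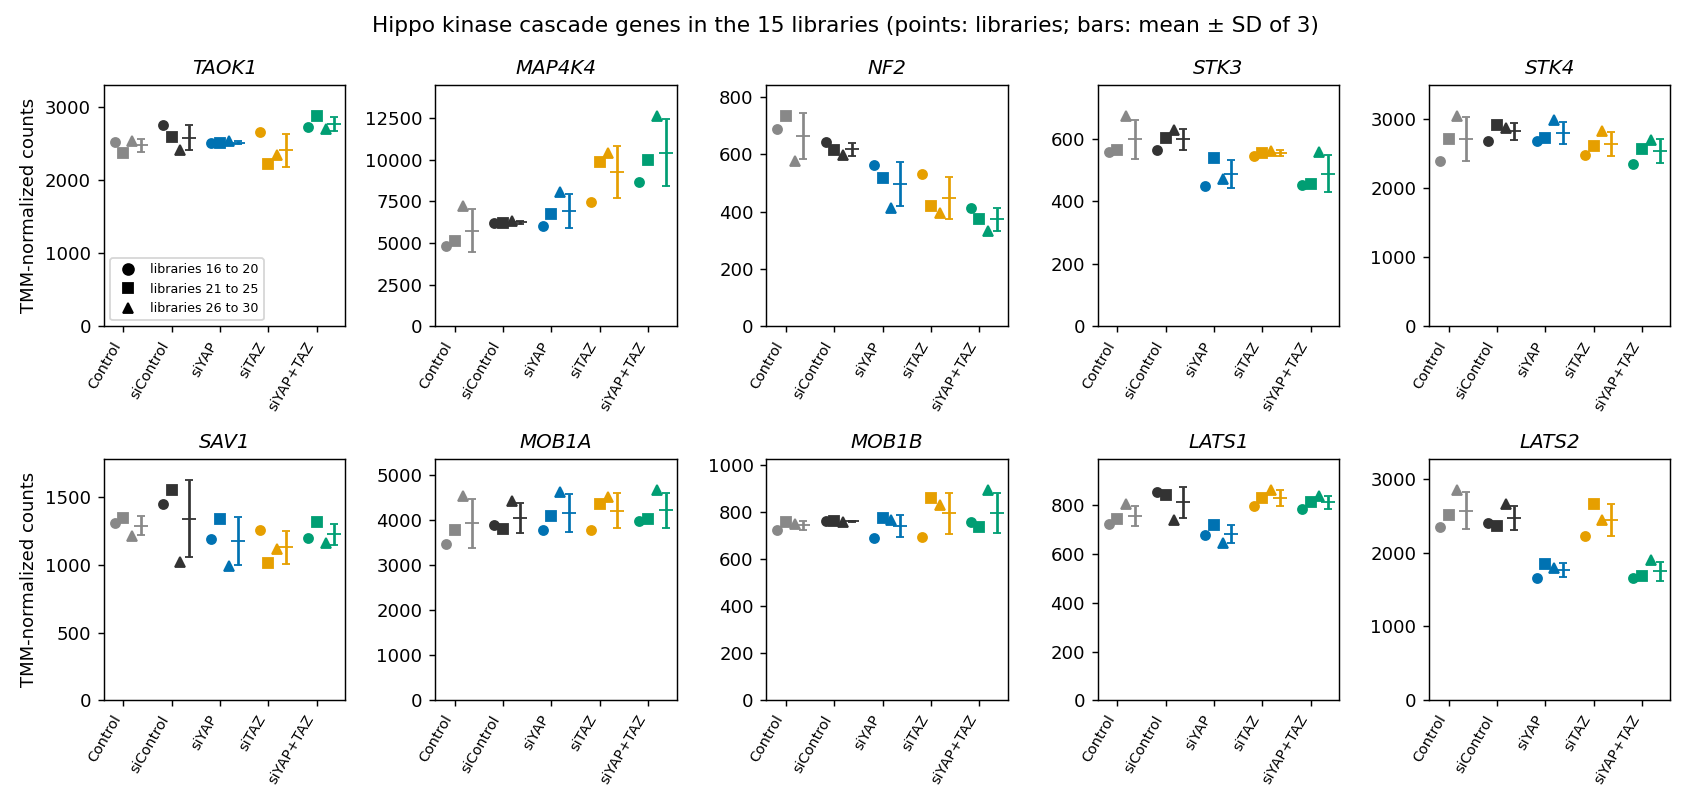
TMM-normalized counts (y axis, from 0) of each cascade gene in the 15 libraries, by group (x axis). Points are libraries, with the shape giving the run of consecutive library numbers, and bars give the mean ± SD of 3. All siYAP and siYAP+TAZ points of LATS2 lie below its other points, from 1658 to 1896 against 2220 and above.

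Of the inputs to the cascade, MAP4K4 encodes a STE20-family kinase that can phosphorylate LATS kinases. The gene lies on the plus strand of chromosome 2 from 101696850 to 101894690 (GRCh38). Its normalized counts were 4843, 5144 and 7216 in Control, 6171, 6190 and 6337 in siControl, 6018, 6747 and 8043 in siYAP, 7458, 9863 and 10362 in siTAZ, and 8636, 9960 and 12579 in siYAP+TAZ. Every siTAZ and siYAP+TAZ library stood above every siControl and Control library, whereas siYAP overlapped siControl and the untransfected cells varied more than the siControl cells. The log2 fold change against siControl was 0.74 in siYAP+TAZ (SE 0.17, edgeR adjusted p = 0.00968). It was 0.57 in siTAZ (SE 0.17, edgeR adjusted p = 0.117) and 0.15 in siYAP (SE 0.17, edgeR adjusted p = 0.818), where it ran from 0.04 without siYAP library 28 to 0.26 without siYAP library 18. MAP4K4 passed the threshold in siTAZ with DESeq2 (adjusted p = 0.0227) and without siTAZ library 19 (0.70, edgeR adjusted p = 0.0379). It also passed there with the runs of consecutive library numbers as a block (edgeR adjusted p = 0.000334), a grouping that the sources do not state. Set directly against siYAP, the siYAP+TAZ cells had a log2 difference of 0.58 (95% confidence interval 0.21 to 0.96, edgeR adjusted p = 0.0754), and against siTAZ of 0.17 (-0.20 to 0.55, edgeR adjusted p = 0.657). The latter ran from 0.02 without siYAP+TAZ library 30 to 0.30 without siYAP+TAZ library 20.

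TAOK1 encodes a TAO kinase that phosphorylates the MST kinases. It had 2752, 2584 and 2412 normalized counts in siControl, 2502, 2505 and 2536 in siYAP, 2657, 2223 and 2347 in siTAZ, and 2728, 2872 and 2699 in siYAP+TAZ. The siYAP+TAZ libraries stood above all libraries of either single knockdown but overlapped siControl. The log2 fold change was 0.10 in siYAP+TAZ (95% confidence interval -0.05 to 0.25), 0.05 without siControl library 27 and 0.15 without siControl library 17, and its sign in siYAP, -0.04, depended on the scaling. Against siTAZ the difference was 0.20 (SE 0.07, edgeR adjusted p = 0.131).

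NF2 encodes merlin, a membrane scaffold and tumor suppressor. The gene lies on the plus strand of chromosome 22 from 29603556 to 29698598 (GRCh38). Its normalized counts were 686, 731 and 575 in Control, 641, 614 and 595 in siControl, 562, 517 and 412 in siYAP, 532, 418 and 396 in siTAZ, and 414, 374 and 333 in siYAP+TAZ. All 9 knockdown libraries were below all siControl and Control libraries, and the siYAP+TAZ libraries overlapped both single knockdowns. The log2 fold change was -0.73 in siYAP+TAZ (SE 0.13, edgeR adjusted p = 0.000737). It was -0.45 in siTAZ (SE 0.13, edgeR adjusted p = 0.0758) and -0.31 in siYAP (SE 0.13, edgeR adjusted p = 0.322). In siTAZ, NF2 passed the threshold with DESeq2 (adjusted p = 0.0419), with Control as the reference (edgeR adjusted p = 0.0233) and without siTAZ library 19 (-0.60, edgeR adjusted p = 0.0161). It also passed there with the runs of library numbers as a block (edgeR adjusted p = 0.000697), a grouping that the sources do not state. The log2 difference of siYAP+TAZ from siYAP was -0.42 (95% confidence interval -0.69 to -0.14, edgeR adjusted p = 0.0756), which passed without siYAP library 28 (-0.53, edgeR adjusted p = 0.0291), and from siTAZ -0.27 (-0.55 to 0.01, edgeR adjusted p = 0.271), or -0.13 without siTAZ library 19. Without siYAP library 28 the value of siYAP against siControl was -0.18.

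**Figure D2:**
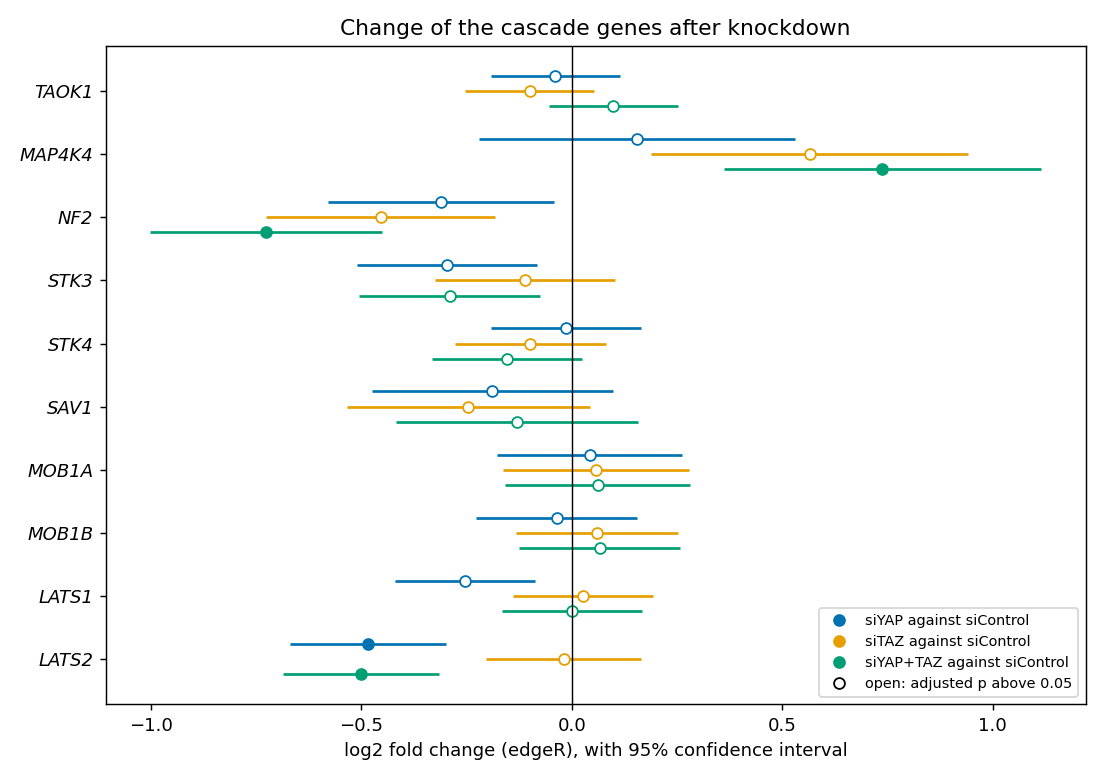
Log2 fold changes (x axis) of the cascade genes (y axis) in each knockdown against siControl, from edgeR, with 95% confidence intervals as lines. Filled points passed an adjusted p of 0.05. They are LATS2, NF2 and MAP4K4 in siYAP+TAZ and LATS2 in siYAP.

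Of the core MST kinases, STK3 (MST2) was the less abundant per length of exon. It had 562, 602 and 628 normalized counts in siControl, 449, 536 and 472 in siYAP, 543, 554 and 562 in siTAZ, and 452, 454 and 556 in siYAP+TAZ. The siYAP and siYAP+TAZ libraries lay below siControl, with library 30 at 556 close to the lowest siControl value, and siTAZ lay below it by less than 1 count. The log2 fold change was -0.30 in siYAP (SE 0.10, edgeR adjusted p = 0.206) and -0.29 in siYAP+TAZ (SE 0.10, edgeR adjusted p = 0.0565), and the latter passed without siYAP+TAZ library 30 (-0.39, edgeR adjusted p = 0.0158). With the runs of library numbers as a block, both passed (edgeR adjusted p = 0.0303 and 0.00872). STK4 (MST1) had group means of 2823 normalized counts in siControl, 2797 in siYAP, 2638 in siTAZ and 2538 in siYAP+TAZ, with SDs of 124 to 173. Its libraries overlapped siControl in every knockdown, and its log2 fold change was -0.15 in siYAP+TAZ (95% confidence interval -0.33 to 0.03), -0.09 without siYAP+TAZ library 20 and -0.10 with Control as the reference. The value of -0.01 in siYAP changed sign with the scaling. The count ratio of STK4 to STK3 within a library was 4.77, 4.84 and 4.58 in siControl, 5.98, 5.09 and 6.31 in siYAP, and 5.20, 5.65 and 4.84 in siYAP+TAZ. The ratios of both groups lay above those of siControl, in siYAP+TAZ only narrowly, at an exact two-sided permutation p of 0.1, the smallest that 3 against 3 allows, and 0.225 when adjusted over the 9 ratio comparisons.

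SAV1 encodes the WW-domain scaffold of the MST kinases. It had 1454, 1552 and 1018 normalized counts in siControl, 1195, 1342 and 991 in siYAP, 1259, 1015 and 1120 in siTAZ, and 1202, 1315 and 1165 in siYAP+TAZ. The siControl libraries themselves spread over most of the range of the others, with library 27 far below libraries 17 and 22. The log2 fold changes ran from -0.25 to -0.13, with adjusted p-values of 0.404 to 0.649 (edgeR). They depended on single siControl libraries. Without library 27 they were -0.29 for the double knockdown, -0.35 for siYAP and -0.41 for siTAZ, without library 22 they were -0.01, -0.07 and -0.13, and without library 17 they were -0.06, -0.12 and -0.19. ATL1 on the opposite strand covers 31.9% of the exonic bases of SAV1, and whether counting used strand is not given in the sources used here.

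MOB1A and MOB1B encode the co-activators that bind LATS kinases. MOB1A averaged 4040 ± 338 normalized counts in siControl (SD, n = 3) and 4160 to 4213 in the knockdowns. MOB1B averaged 759 ± 2.93 in siControl (SD, n = 3) and 741 to 794 in the knockdowns. Neither separated from siControl in any knockdown. All their log2 fold changes lay between -0.04 and 0.07, and the 95% confidence interval of MOB1A in siYAP+TAZ ran from -0.16 to 0.28. The MOB1A to MOB1B count ratio was 5.32 in siControl and 5.32 to 5.61 in the knockdowns, with exact permutation p-values of 0.5 to 1.

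LATS2 and LATS1 encode the kinases that phosphorylate YAP and TAZ. LATS2 lies on the minus strand of chromosome 13 from 20973036 to 21061586 (GRCh38). Its normalized counts were 2347, 2515 and 2847 in Control, 2406, 2356 and 2661 in siControl, 1660, 1849 and 1798 in siYAP, 2220, 2664 and 2442 in siTAZ, and 1658, 1687 and 1896 in siYAP+TAZ. The siYAP and siYAP+TAZ libraries formed 1 low range, and siTAZ overlapped siControl. The log2 fold change was -0.50 in siYAP+TAZ (SE 0.09, edgeR adjusted p = 0.000599) and stayed past the threshold under all 15 alternatives tried, between -0.56 and -0.45. It was -0.48 in siYAP (SE 0.09, edgeR adjusted p = 0.0116) and -0.02 in siTAZ (95% confidence interval -0.20 to 0.16, edgeR adjusted p = 0.949). The call in siYAP was lost without siControl library 17 (adjusted p = 0.0557), siControl library 27 (0.0619), siYAP library 18 (0.0746) or siYAP library 28 (0.0514), with log2 fold changes of -0.43 to -0.49 in these 4 edgeR fits. It held without siYAP library 23, in which YAP1 was least depleted (-0.50, edgeR adjusted p = 0.0275).

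Direct tests between knockdowns gave the same order for LATS2. It was lower in siYAP than in siTAZ by 0.46 on the log2 scale (SE 0.09, edgeR adjusted p = 0.0248), where 0.642% of all genes and 1 cascade gene were called. This difference was not past the threshold without siYAP library 18 (adjusted p = 0.183), siYAP library 28 (0.106), siTAZ library 24 (0.202) or siTAZ library 29 (0.0815), nor in an edgeR fit of only these 2 groups (0.18). The log2 values there were -0.41, -0.47, -0.38, -0.46 and -0.46, and the calls over all genes fell from 121 to 0, 0, 4, 3 and 1 in the same order. The same comparison called, among others, AMOTL2 (-0.44, edgeR adjusted p = 0.0108) and the inhibitor WTIP (-0.93, adjusted p = 0.0488). LATS2 was lower in siYAP+TAZ than in siTAZ by 0.48 (SE 0.09, edgeR adjusted p = 0.00387), the 1 cascade gene called there where 5.44% of all genes were. Between siYAP+TAZ and siYAP the LATS2 difference was -0.02 (95% confidence interval -0.20 to 0.17, edgeR adjusted p = 0.948). In that comparison 0 cascade genes and 5.13% of all genes were called, with 3 of the 10 at an unadjusted p under 0.05 and 2, LATS1 and MAP4K4, called by DESeq2. Of all 18858 genes, 3613 had such an unadjusted p and DESeq2 called 1292.

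LATS1 had 856, 843 and 739 normalized counts in siControl, 677, 721 and 647 in siYAP, 797, 830 and 862 in siTAZ, and 787, 812 and 841 in siYAP+TAZ. The siYAP libraries lay below all others of these groups, and the siYAP+TAZ libraries overlapped siControl. The log2 fold change was -0.25 in siYAP (SE 0.08, edgeR adjusted p = 0.152), or -0.15 with Control as the reference. It was 0.00 in siYAP+TAZ (95% confidence interval -0.17 to 0.17). Direct differences did not pass the edgeR test without a block either, at -0.28 for siYAP against siTAZ (edgeR adjusted p = 0.116) and 0.25 for siYAP+TAZ against siYAP (edgeR adjusted p = 0.0722). With the runs of library numbers as a block, LATS1 passed in siYAP against siControl (edgeR adjusted p = 0.0369) and in both direct differences. The ratio of LATS2 to LATS1 counts was 2.81, 2.79 and 3.60 in siControl, 2.45, 2.56 and 2.78 in siYAP, 2.79, 3.21 and 2.83 in siTAZ, and 2.11, 2.08 and 2.26 in siYAP+TAZ. It lay below all siControl values in siYAP, narrowly, and in siYAP+TAZ, each at the smallest exact permutation p of 0.1, or 0.225 adjusted over 9.

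Whether the double knockdown matched the added log2 fold changes of both single knockdowns was estimated as an interaction term. The value was 0.00 for LATS2 (95% confidence interval -0.26 to 0.26), 0.04 for NF2 (-0.35 to 0.42) and 0.02 for MAP4K4 (-0.51 to 0.55). Of the cascade genes 0 were called in edgeR and 0 by DESeq2, where 0.0106% of all genes were called in edgeR, and 1, TAOK1, had an unadjusted p under 0.05 (0.24, edgeR adjusted p = 0.808). Of all 18858 genes, 1104 had such an unadjusted p and DESeq2 called 21. All 3 intervals include departures in either direction. The targets were not depleted alike in the groups this term compares, YAP1 averaging 48.1% of siControl with both pools and 35.0% in siYAP, with overlapping libraries, and WWTR1 65.2% with both pools and 29.6% in siTAZ, without overlap.

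**Figure D3:**
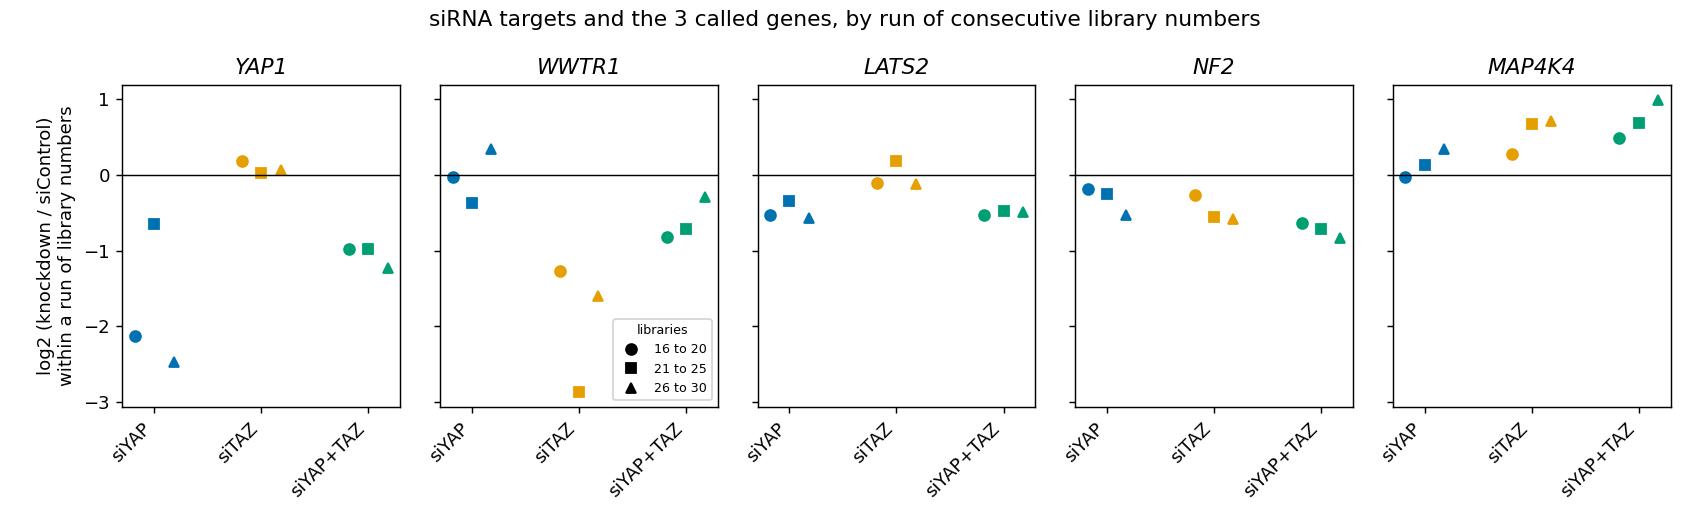
Log2 ratio of each knockdown library to the siControl library of the same run of consecutive library numbers (y axis), for the siRNA targets and the 3 called genes (panels), by knockdown (x axis). LATS2 was lower in 3 of 3 runs in siYAP and siYAP+TAZ, NF2 in 3 of 3 runs in each knockdown, and MAP4K4 higher in 3 of 3 runs in siTAZ and siYAP+TAZ. These groups did not overlap siControl, so any pairing of libraries gives these directions.

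The sources do not say which libraries form an experimental set, so runs of neighbouring library numbers (from 16, from 21 and from 26) were not treated as sets. Within them the log2 ratio of LATS2 was -0.54, -0.48 and -0.49 in siYAP+TAZ and -0.54, -0.35 and -0.57 in siYAP, with the smallest of the latter in the run of library 23. The ratio of NF2 in siYAP+TAZ was -0.63, -0.72 and -0.84. The ratio of MAP4K4 in siYAP+TAZ was 0.48, 0.69 and 0.99. The libraries of these groups did not overlap siControl for these genes. Any pairing of libraries would therefore give the same directions, and the runs do not test them.

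Counted by libraries that do not overlap, siYAP+TAZ had 1 cascade gene wholly above and 3 wholly below siControl, where 36.4% of all genes did not overlap. The siYAP knockdown had 0 above and 4 below (NF2, STK3, LATS1 and LATS2), where the share was 19.5% of all genes and 9.86% lay below. The siTAZ knockdown had MAP4K4 above and 2, NF2 and STK3, below, where the share was 20.9%. Between siControl and Control all 10 cascade genes overlapped, where 5.83% of all genes did not.

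Levels of different genes were compared only per length, in CPM (library counts scaled to the same depth) per kilobase of exon. In siControl, MOB1A was the highest at 26.5 ± 2.22, ahead of MAP4K4 at 22.0 ± 0.32 and LATS2 at 18.6 ± 1.23 (SD, n = 3). SAV1 followed at 10.1 ± 2.15, STK4 at 7.21 ± 0.32 and TAOK1 at 6.39 ± 0.42. LATS1 (4.05 ± 0.32), MOB1B (3.65 ± 0.014), NF2 (3.53 ± 0.13) and STK3 (2.0 ± 0.11) were the lowest, and by this length MOB1B and NF2 were the neighbours in the order that overlapped. In siYAP+TAZ the mean of MAP4K4, 36.8 ± 7.10, was above that of MOB1A, 27.7 ± 2.53, with overlapping libraries. LATS2 averaged 13.2 there, against 18.6 in siControl, and was in the third place in both. With the longest transcript in place of all exonic bases, LATS2 was in the fourth place in siYAP+TAZ at 13.3, behind SAV1 at 16.8. In siControl by that length, STK3 moved from the lowest place to the seventh at 4.74, and NF2 became the lowest at 4.35. The libraries of 5 pairs of neighbours then overlapped there, MOB1A and MAP4K4, LATS2 and SAV1, SAV1 and STK4, STK3 and LATS1, and LATS1 and MOB1B, while MOB1B and NF2 did not. By the longest transcript MAP4K4 (55.1) and MOB1A (36.4) did not overlap in siYAP+TAZ.

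**Figure D4:**
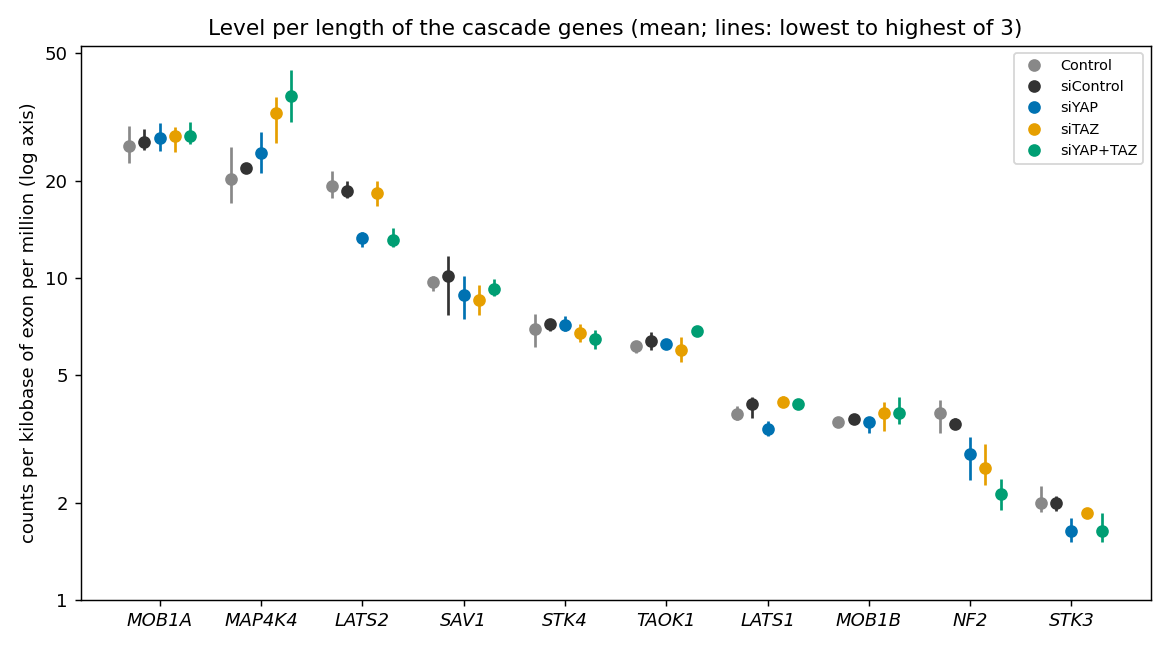
CPM per kilobase of exon (y axis, log scale) for the cascade genes, ordered by siControl level (x axis). Points are group means and lines run from the lowest to the highest of 3 libraries. MAP4K4 is the gene that passes MOB1A, at 36.8 against 27.7 in siYAP+TAZ.

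For each called gene, the 3 genes with the most similar pattern were those with the smallest root mean square difference of centred log2 CPM over the 15 libraries, among the 10639 genes averaging 100 or more normalized counts. For LATS2 they were PKP4 (0.07), SLC7A5 (0.08) and FLII (0.09), where the median gene stood at 0.29. For NF2 they were PAWR (0.09), FRMD6 (0.09) and SNHG1 (0.10), with a median of 0.36. For MAP4K4 they were CD82, GNAO1 and MFAP2 (each 0.11), with a median of 0.41. FRMD6 is also on the list of upstream scaffolds.

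Promoter windows are shown for LATS2 and NF2, the genes that fell, as the 250 bases before a RefSeq start (build GRCh38.p14) that lie outside the annotated gene. RefSeq windows matched 9 of the 10 genes with 14 windows, and STK3 had no entry. Capitals mark GGGCGG or its reverse complement CCGCCC, the GC box bound by Sp-family factors. The window of LATS2 is chr13:21061587-21061836 on the minus strand and that of NF2 is chr22:29603306-29603555 on the plus strand, both written in the direction of transcription.
LATS2: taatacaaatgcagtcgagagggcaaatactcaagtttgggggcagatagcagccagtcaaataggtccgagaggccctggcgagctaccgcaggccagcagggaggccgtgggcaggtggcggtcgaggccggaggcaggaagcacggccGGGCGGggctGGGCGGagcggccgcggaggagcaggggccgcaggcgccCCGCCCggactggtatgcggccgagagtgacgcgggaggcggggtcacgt
NF2: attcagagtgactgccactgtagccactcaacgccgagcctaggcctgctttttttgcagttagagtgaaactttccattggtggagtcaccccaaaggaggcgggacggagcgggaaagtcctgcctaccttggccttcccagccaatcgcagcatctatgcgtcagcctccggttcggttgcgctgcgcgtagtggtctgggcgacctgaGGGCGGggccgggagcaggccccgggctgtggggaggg
The core of the TEAD motif, CATTCC or its reverse complement GGAATG, was in 0 of the 14 windows, and in 10.1% of the 17100 windows of genes in the count table. The GC box was in 9 of the 14 windows and in 60.9% of those 17100. The windows of NF2 overlap each other and share their GC box, and the 17100 windows belong to 11856 genes. LATS2 holds 3 GC boxes and NF2 holds 1 in the windows shown. These letters were searched only in these windows.

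The rest of the pathway was read from 5 lists of genes, to be set against the 18.4% of all genes called with both pools, 0.933% with the YAP1 pool and 2.03% with the WWTR1 pool. Of 13 kinases related to the members, siYAP+TAZ called 1 higher and 0 lower against siControl. It was TNIK, a relative of MAP4K4, which rose by 1.23 on the log2 scale (edgeR adjusted p = 9.47e-07). Among the related kinases 0 were called in either single knockdown, with 2 in each at an unadjusted p under 0.05, as were 2241 of all 18858 genes in siYAP and 3023 in siTAZ. DESeq2 called 1 and 0 of the 13, beside 400 and 802 of all genes, and limma-voom 0 in both. Of 20 upstream scaffolds, siYAP+TAZ called 4 higher and 4 lower. AMOTL2, an angiomotin family member also on the list of targets, fell by 0.84, WWC1 (KIBRA) by 0.66, WWC2 by 0.52 and FRMD6 by 0.72 on the log2 scale (edgeR adjusted p from 1.08e-07 to 0.000419). The 4 that rose were the RASSF family genes RASSF2 by 1.11, RASSF4 by 1.06 and RASSF5 by 0.52, and the angiomotin family gene AMOTL1 by 0.23 (edgeR adjusted p from 0.00572 to 0.0239), with RASSF2 averaging 27.9 normalized counts. The siYAP knockdown called 3 scaffolds lower, and siTAZ 1 higher and 1 lower. CLDN22 on the opposite strand covers 21.8% of the exonic bases of WWC2.

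Of 17 inhibitors of the cascade, siYAP+TAZ called 0 higher and 3 lower, a share near the 18.4% of all genes called there. AJUBA and WTIP, LIM proteins that hold LATS kinases inactive, fell by 0.70 and 0.82, and the phosphatase subunit PPP2CB fell by 0.25 (edgeR adjusted p = 0.0314). WTIP also fell in siYAP alone by 1.1 (edgeR adjusted p = 0.0155), the 1 inhibitor called there, and 0 were called in siTAZ, with 3 of the 17 and the same 3023 of all genes at an unadjusted p under 0.05 and 1 called by DESeq2. Of 18 effectors and partners, siYAP+TAZ called 2 higher and 2 lower, beside the same 18.4% of all genes. VGLL4, which competes with YAP for TEAD factors, rose by a log2 fold change of 0.75, and TEAD2 rose by 0.34 (edgeR adjusted p = 3.49e-06 and 0.0173). TEAD4 and TEAD1, DNA-binding partners of YAP and TAZ, fell by 0.51 and 0.29 (edgeR adjusted p = 0.000224 and 0.0304). Genes on the opposite strand cover 23.8% of the exonic bases of VGLL4. VGLL4 rose in both single knockdowns as well, by 0.37 in siYAP and 0.51 in siTAZ.

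Of 21 targets of YAP and TAZ, counted without LATS2, siYAP+TAZ called 13 lower and 1 higher, beside 18.4% of all genes. CCN1, a matricellular protein, fell by 1.17, CCDC80 by 0.86 and GADD45A by 0.59 on the log2 scale (edgeR adjusted p from 8.37e-06 to 7.19e-05). The siYAP and siTAZ knockdowns each called 4 lower and 0 higher, and DESeq2 called 8 lower in siYAP and 8 lower and 1 higher in siTAZ. The median of these targets stood at -0.61 with both pools, -0.39 with the YAP1 pool and -0.33 with the WWTR1 pool, beside -0.50, -0.48 and -0.02 for LATS2. In siYAP+TAZ the median of the inhibitors, the scaffolds and the related kinases was -0.10, -0.16 and -0.03, beside -0.06 for the 10 cascade genes and -0.00 for all genes.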

How the data were processed

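The RNA of 15 MDA-MB-231 libraries was sequenced by the authors from the polyadenylated fraction. Per the labels and the study's methods, reads were trimmed, aligned to GRCh38 with STAR 2.4.2a and counted per gene. The deposited values used here are these raw read counts, without normalization. The same file holds normalized and rlog values and, for pairs of groups, the authors' fold changes, p-values and adjusted p-values from DESeq2, none of which was used.

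Samples were grouped by their titles. The 10 members and the gene lists were chosen with earlier results of these data known, and all genes named follow written rules, except that the GC box and the 4 scaffolds that rose were added after values were seen, as were the alternatives for the siRNA targets. Those rules name the members, the siRNA targets, from each pathway list up to 4 genes called in siYAP+TAZ with the smallest p, and the 3 genes most similar to each called member. The table holds 18858 genes, each with 5 or more reads somewhere. TMM factors of 0.943 to 1.03 scaled the counts. The robust quasi-likelihood test of edgeR 4.0.16 (R 4.3.3) was fitted over all 15 libraries, with 1 coefficient per group and no block, and Benjamini-Hochberg adjustment covered every gene. Normalized counts are counts divided by the TMM-scaled library size relative to the mean library. Ratios of paralogues were tested with an exact two-sided permutation test. Exonic lengths and overlaps come from GENCODE release 44 on GRCh38, a later release than the one used for counting. The alternatives were DESeq2 1.42.0, limma-voom (limma 3.58.1), other scalings, a filter, other reference and sample choices, a block and leaving out each library. The edgeR, DESeq2 and limma-voom fits were tested on simulated data. Of 100 genes given a log2 change of 0.6 in size in siYAP+TAZ against siControl, they recovered 64, 70 and 62. For the interaction edgeR recovered 31 of 100. Genes that were not called may thus have changed. The study states independent experiments without tying libraries to them, so p-values measure the spread between these libraries. Precision is limited by 3 libraries per group. The depth of 18696737 to 30107312 counts gave each member 308 raw counts or more in every library.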

Additional observations from a re-analysis of the deposited data

Results flagged for a closer look

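LATS2 was the 1 cascade gene called between the single knockdowns in a direct edgeR test without a block, which called 121 genes in all, AMOTL2 (-0.44) and WTIP (-0.93) among them. The log2 difference of siYAP against siTAZ was -0.46 (SE 0.09, edgeR adjusted p = 0.0248), with all 3 siYAP libraries below all 3 siTAZ libraries. Over 14 alternatives the value ran from -0.53 to -0.38, and the call was lost when either of 2 siYAP libraries or either of 2 siTAZ libraries was left out or when only these groups were fitted. YAP1 and TAZ RNA were depleted to different shares of siControl in those groups, and whether that bears on the difference was not tested. Groups of 3 libraries were not tested for single outlying libraries.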

How the results depend on the processing

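The calls of LATS2, NF2 and MAP4K4 in siYAP+TAZ held under all 15 alternatives for each, as did that of LATS2 in siYAP+TAZ against siTAZ under 14. The number of members called changed as follows, and where no value shows a cause, the cause was not tested. With the runs of library numbers as a replicate block it was 5 in siYAP+TAZ (STK3 and STK4 added), 4 in siYAP (LATS1, NF2 and STK3 added), 2 in siTAZ (MAP4K4 and NF2, adjusted p = 0.000334 and 0.000697), and 3 in each direct comparison between knockdowns. Those calls added LATS1, MAP4K4 and NF2 for siYAP+TAZ against siYAP, NF2 and TAOK1 against siTAZ, and LATS1 and MAP4K4 for siYAP against siTAZ. Deviations from the group means correlated at a median of 0.39 within runs (lowest of 30 pairs -0.05) and -0.32 between them, and 10 of 15 libraries correlated best with their own run. Since the deviations of a group cancel by construction, the negative value follows from the positive one and adds nothing to it. With DESeq2 it was 2 in siTAZ and 2 in siYAP+TAZ against siYAP, without robust estimation 1 in the latter, with Control as the reference 1 in siTAZ, and with only the groups compared 1 in siTAZ and 0 in siYAP against siTAZ. Leaving out 1 library gave 3 to 4 in siYAP+TAZ (STK3 added without siYAP+TAZ library 30), 0 to 1 in siYAP, 0 to 2 in siTAZ, 0 to 1 in siYAP+TAZ against siYAP, 1 to 2 against siTAZ, and 0 to 1 in siYAP against siTAZ. The log2 ratio of STK4 to STK3 in siTAZ was 0.07 with Control as the reference and -0.027 to 0.040 with 1 library left out. That of LATS2 to LATS1 in siTAZ was then -0.12 to 0.068, and that of MOB1A to MOB1B -0.041 to 0.070 in siTAZ and -0.041 to 0.071 in siYAP+TAZ. Values near 0 changed sign. They were LATS1 in siYAP+TAZ under the block (-0.00066), STK4 in siYAP with Control (0.043), library size only (0.036) or filterByExpr (0.0031), MOB1B (0.013) and TAOK1 (0.0083) in siYAP with library size only, TAOK1 in siYAP with Control (0.022), the LATS2 interaction with DESeq2 size factors (-0.00012), library size only (-0.019), filterByExpr (-0.010), the block (-0.00018) or only the groups compared (-0.0073), and the MAP4K4 interaction with library size only (-0.0012). With 1 library left out, log2 values ran from -0.063 to 0.046 for LATS1, -0.010 to 0.13 for MOB1A and -0.020 to 0.12 for MOB1B in siYAP+TAZ, from -0.051 to 0.029 for STK4, -0.028 to 0.12 for MOB1A, -0.051 to 0.029 for MOB1B and -0.086 to 0.021 for TAOK1 in siYAP, and from -0.036 to 0.065 for LATS1, -0.088 to 0.046 for LATS2 and -0.0012 to 0.15 for MOB1B in siTAZ. They ran from -0.087 to 0.014 for LATS2 in siYAP+TAZ against siYAP, and in the interaction from -0.065 to 0.064 for LATS2, -0.079 to 0.18 for NF2 and -0.15 to 0.14 for MAP4K4. Over all genes, library size only gave 2152 higher and 1194 lower calls in siYAP+TAZ in place of 1881 and 1583, 143 and 64 in siYAP in place of 90 and 86, and 32 and 46 in siYAP against siTAZ in place of 32 and 89. All calls over genes rose from 3464 to 5389 in siYAP+TAZ, from 176 to 1151 in siYAP and from 383 to 1942 in siTAZ under the block, and in siYAP+TAZ from 968 to 2758 against siYAP and 1025 to 2795 against siTAZ, and in siYAP against siTAZ from 121 to 1380. DESeq2 gave 400 in siYAP and 802 in siTAZ. Leaving out 1 library gave 2505 to 2926 in siYAP+TAZ. In siYAP it gave 27, 64 and 68 without siControl libraries 17, 22 and 27, and 63, 137 and 39 without siYAP libraries 18, 23 and 28. In siTAZ it gave 123, 124 and 282 without those siControl libraries, and 907, 68 and 242 without siTAZ libraries 19, 24 and 29. Between knockdowns it gave 412 to 692 for siYAP+TAZ against siYAP, 471 to 952 against siTAZ, and 0 to 417 for siYAP against siTAZ. In the interaction the 2 calls became 0 to 5 with 1 library left out and 122 under the block. Between siControl and Control, the 398 genes at an unadjusted edgeR p under 0.05 became 1504 without Control library 26. They became 793 under the block, which called 1 gene there.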
